A study of Homo sapiens with 6 samples.

Results

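The chaperonin CCT, also called TRiC, is the barrel-shaped ATP-driven chaperone of the eukaryotic cytosol, and its 8 subunit genes are described here in Mon-Mac-6 cells treated with a METTL3 degrader. The members are the rows of the deposited table named TCP1, CCT2, CCT3, CCT4, CCT5, CCT6A, CCT7 and CCT8, which are 8 of the 31853 genes in that table. The set was selected on its FPKM levels and on its WD6305 against DMSO values, so these are given as a description and no test is read from them.

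CCT is built of stacked rings in which each subunit occupies its own fixed position, so the assembled complex holds equal amounts of every subunit. Unfolded proteins are closed inside the barrel and released after ATP hydrolysis, and actin and tubulin are its best known clients. Prefoldin hands nascent clients to the barrel, and phosducin-like proteins act on it as co-factors.

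Mon-Mac-6 is an established human line of monocytic acute myeloid leukaemia. The treated cells received WD6305 at 500 nM for 48 h, a PROTAC, a kind of molecule that tethers a protein to a ubiquitin ligase and so has it degraded. Its target is METTL3, the enzyme that writes N6-methyladenosine into RNA. The control cells received DMSO over the same time, and the labels give no genotype or further agent for either group. Each group had 3 libraries of poly(A) RNA. Whether they came from separate cultures is not in the labels, so p-values measure a spread between libraries that may be technical. All samples come from a single cell line, and no protein was measured.

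Total estimated counts ranged from 64525948 to 69726451 in the WD6305 libraries and from 66525685 to 71155346 in the DMSO libraries. METTL3 RNA was 12.47, 12.19 and 12.65 FPKM with WD6305 and 11.29, 10.50 and 10.94 FPKM with DMSO. Its RNA level says nothing of the METTL3 protein, on which a degrader acts. All 7 monocytic markers were detected in every library, and their summed level was 7864 to 8683 FPKM with WD6305 and 4531 to 4776 FPKM with DMSO. By group mean, LYZ, ELANE, CD33, ITGAM and CSF1R were higher with WD6305, and CD14 and MPO were lower. Markers of skin and connective tissue summed to 6.98, 30.86 and 30.15 FPKM in WD6305 libraries 1 to 3 and to 37.85, 32.18 and 3.18 FPKM in DMSO libraries 1 to 3. KRT5 was thus 0.01 FPKM in WD6305 library 1 and 0.03 FPKM in DMSO library 3, against 14.45 to 18.03 FPKM in the other libraries, so those libraries stood apart within each group. KRT2 was at 0 in all 6 libraries, and KRT9 was not in the table. Lymphoid and erythroid markers summed to at most 0.83 FPKM with WD6305 and 0.99 FPKM with DMSO, with 3 of 7 detected. The part of these markers in the results below was not tested. Without WD6305 library 1 and DMSO library 3, the calls, log2 fold changes, shares and highest over lowest ratio of the subunits were recomputed. Their summed level, their order and their likeness to other genes were not.

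The subunit genes lie on 7 chromosomes of GRCh38, with CCT4 and CCT7 both on chromosome 2. TCP1, the alpha subunit (ENSG00000120438), spans chr6:159778498-159789703 on the minus strand, and CCT2, the beta subunit (ENSG00000166226), spans chr12:69585426-69601570 on the plus strand. CCT3, the gamma subunit (ENSG00000163468), spans chr1:156308968-156367873 on the minus strand, and CCT4, the delta subunit (ENSG00000115484), spans chr2:61868085-61888671 on the minus strand. CCT5, the epsilon subunit (ENSG00000150753), spans chr5:10249929-10266389, and CCT6A, a zeta subunit (ENSG00000146731), spans chr7:56051685-56063989, both on the plus strand. CCT7, the eta subunit (ENSG00000135624), spans chr2:73233420-73253021 on the plus strand, and CCT8, the theta subunit (ENSG00000156261), spans chr21:29055805-29073797 on the minus strand.

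The promoters are shown because all 8 genes had lower RNA in the treated libraries and heat shock factors are reported to act on CCT promoters. RefSeq promoter windows on GRCh38.p14, each around an annotated start, were matched for 7 of the 8 genes as 9 windows. Both strands were searched for the paired heat shock units GAANNTTC and TTCNNGAA, which differ in the direction of the units. At least 1 such pair occurred in 3 of these 9 windows, from 3 of the 7 genes, and in 13.5% of all 35116 windows. Capitals mark the matched pair in each sequence, printed 5′ to 3′ on the strand of the gene. The windows are chr6:159789553-159789852 (minus strand) for TCP1, the second window of CCT2 at chr12:69585639-69585938 (plus strand), and chr2:61888607-61888906 (minus strand) for CCT4.
TCP1: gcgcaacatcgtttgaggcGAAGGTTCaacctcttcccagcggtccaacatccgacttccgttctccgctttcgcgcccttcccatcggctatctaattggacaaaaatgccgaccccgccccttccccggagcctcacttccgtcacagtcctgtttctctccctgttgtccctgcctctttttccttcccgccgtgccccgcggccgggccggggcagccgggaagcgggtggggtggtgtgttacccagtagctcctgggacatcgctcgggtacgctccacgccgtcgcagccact
CCT2: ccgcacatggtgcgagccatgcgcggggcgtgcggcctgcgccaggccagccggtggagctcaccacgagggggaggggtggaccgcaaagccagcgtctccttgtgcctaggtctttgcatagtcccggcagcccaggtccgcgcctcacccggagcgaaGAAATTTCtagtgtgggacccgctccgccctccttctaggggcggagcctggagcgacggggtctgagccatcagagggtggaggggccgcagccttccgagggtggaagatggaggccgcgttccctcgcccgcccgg
CCT4: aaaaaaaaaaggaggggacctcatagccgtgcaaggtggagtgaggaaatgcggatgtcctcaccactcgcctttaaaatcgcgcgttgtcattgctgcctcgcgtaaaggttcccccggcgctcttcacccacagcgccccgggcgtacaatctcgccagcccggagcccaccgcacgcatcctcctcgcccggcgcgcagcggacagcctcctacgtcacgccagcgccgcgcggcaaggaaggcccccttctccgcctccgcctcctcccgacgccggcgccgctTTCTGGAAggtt

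In TCP1 the pair GAAGGTTC started at position -231 from the RefSeq start, beyond the deposited start of the neighbouring gene MRPL18 and so inside that gene. In CCT2 the pair GAAATTTC started at position -89, in a window whose RefSeq start lies 463 bases downstream of the deposited start of the gene. That window lies inside the deposited gene. In CCT4 the pair TTCTGGAA started at position 39, downstream of the start. Among other motifs, the E-box CACGTG was in 0 of the 9 windows of the subunit genes, against 7.26% of all windows. CCAAT was in 4 of the 9 (CCT2, CCT3, CCT8 and TCP1), against 34.6%. The palindromic NRF1 motif was in 2 of the 9 (CCT3 and CCT5), against 5.78%. The ETS motif CCGGAAG was in 1 of the 9 (CCT2), against 10.3%. The GC box GGGCGG was in 6 of the 9, from 5 genes (CCT2, CCT3, CCT7, CCT8 and TCP1), against 45.0%. These matches describe letters in these windows. Several RefSeq starts lay far from the deposited gene starts, by 29581 bases for CCT3, 888 bases for CCT7 and 608 bases for CCT5.

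Every subunit transcript was lower with WD6305, and in all 8 genes the 3 WD6305 libraries lay below the 3 DMSO libraries. The summed level of the subunits was 545.18, 536.95 and 527.68 FPKM with WD6305 and 774.72, 734.12 and 779.13 FPKM with DMSO. The means were 536.6 ± 8.76 FPKM and 762.7 ± 24.8 FPKM (SD, n = 3 each), a ratio of 0.704. In estimated counts the subunits took 0.220% to 0.228% of a WD6305 library and 0.304% to 0.321% of a DMSO library. In bulk RNA, fewer cells of a type and less RNA per cell cannot be told apart.

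**Figure D1:**
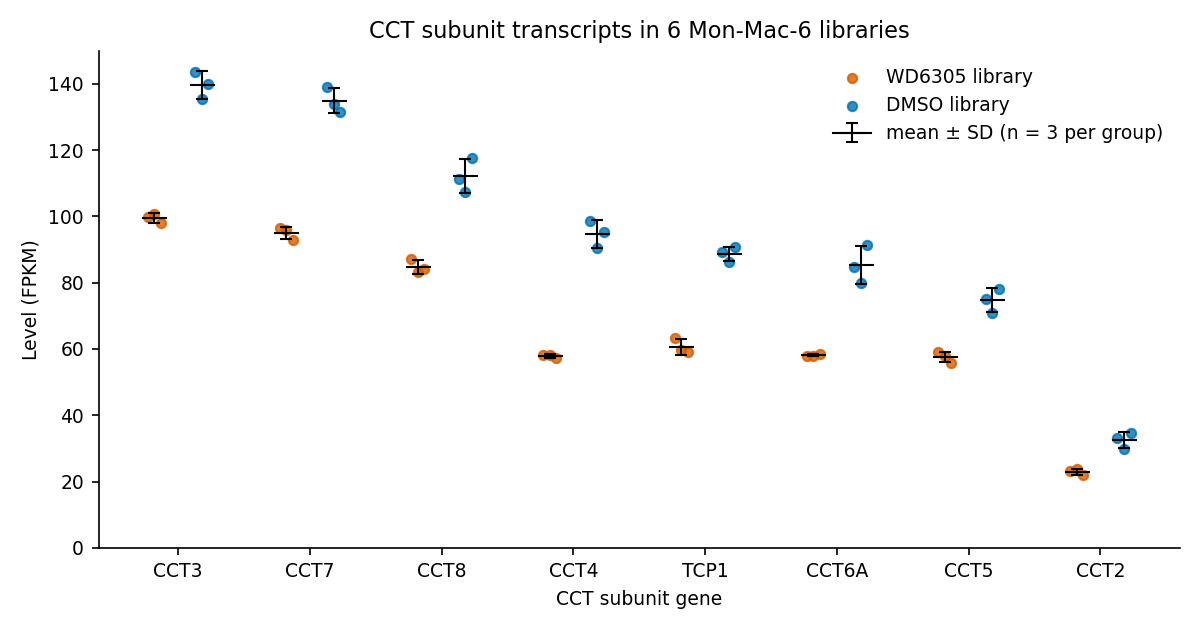
Level of each CCT subunit transcript in FPKM, with a point for each of 3 WD6305 libraries (orange, left) and 3 DMSO libraries (blue, right) and bars for mean ± SD. For each of the 8 genes the WD6305 points lie below the DMSO points, and CCT2 is lowest in both groups.

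Among the subunits that bind ATP tightly in yeast, CCT4 had the lowest ratio of treated to control. It was 58.22, 58.10 and 57.36 FPKM with WD6305 and 98.55, 90.32 and 95.29 FPKM with DMSO. The DMSO range began far above the WD6305 range, and the log2 fold change was -0.69 ± 0.0469 (SE, edgeR). CCT5, in which variants are known to cause a hereditary sensory neuropathy, had 59.03, 57.76 and 55.83 FPKM with WD6305 and 75.10, 70.87 and 78.07 FPKM with DMSO. Its log2 fold change of -0.35 ± 0.0474 (SE) was the smallest in size of the 8 genes.

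CCT2, which is also reported to act outside the barrel as a receptor for autophagy of protein aggregates, had 23.06, 23.77 and 22.00 FPKM with WD6305 and 33.27, 29.93 and 34.56 FPKM with DMSO. DMSO library 2 was the lowest of its group and still above every WD6305 library, and the log2 fold change was -0.48 ± 0.0589 (SE). TCP1, the first subunit to be described, had 63.44, 59.57 and 58.99 FPKM with WD6305 and 89.14, 86.34 and 90.66 FPKM with DMSO. Its log2 fold change was -0.52 ± 0.0463 (SE), with WD6305 library 1 the highest of the treated libraries. CCT7 had 96.37, 95.90 and 92.99 FPKM with WD6305 and 138.97, 134.01 and 131.62 FPKM with DMSO, a log2 fold change of -0.48 ± 0.0464 (SE).

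Among the subunits that bind ATP weakly in yeast, CCT3 was the most abundant. It had 99.93, 100.75 and 98.00 FPKM with WD6305 and 143.71, 135.29 and 140.00 FPKM with DMSO. The groups did not overlap, and the log2 fold change was -0.46 ± 0.0447 (SE). CCT6A had 58.00, 58.00 and 58.37 FPKM with WD6305 and 84.65, 80.02 and 91.31 FPKM with DMSO. The treated libraries were nearly equal, while the DMSO libraries spread over more than 11 FPKM, and the log2 fold change was -0.53 ± 0.0499 (SE). CCT8 had 87.13, 83.10 and 84.14 FPKM with WD6305 and 111.33, 107.34 and 117.62 FPKM with DMSO, a log2 fold change of -0.38 ± 0.0461 (SE).

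In the edgeR quasi-likelihood fit over 18138 genes, 8 of the 8 subunits were called lower at an adjusted p under 0.05, where 23.4% of all tested genes were called, 11.2% lower and 12.2% higher. In all 8 genes the WD6305 libraries lay below every DMSO library in CPM, which was so for 20.3% of tested genes. The contrast was used to choose the members, so nothing is read from these counts. Among the 2098 tested genes with a mean of at least 20 FPKM, which is a class that holds all 8 subunits, 29.3% were called lower and 19.3% higher. The median log2 fold change was -0.48 for the subunits, -0.06 for that class and 0.0003 for all tested genes. Without WD6305 library 1 and DMSO library 3, the log2 fold changes ran from -0.70 for CCT4 to -0.35 for CCT5.

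In deposited FPKM, the order of the subunits by level was almost fixed between the groups apart from CCT4. With WD6305 it was CCT3 (99.6 ± 1.41 FPKM), CCT7 (95.1 ± 1.83), CCT8 (84.8 ± 2.09), TCP1 (60.7 ± 2.42), CCT6A (58.1 ± 0.214), CCT4 (57.9 ± 0.466), CCT5 (57.5 ± 1.61) and CCT2 (22.9 ± 0.891; SD, n = 3). The ranges of CCT6A and CCT4, and of CCT4 and CCT5, met, and no other neighbours in that order met. With DMSO it was CCT3 (139.7 ± 4.22 FPKM), CCT7 (134.9 ± 3.75), CCT8 (112.1 ± 5.18), CCT4 (94.7 ± 4.14), TCP1 (88.7 ± 2.19), CCT6A (85.3 ± 5.68), CCT5 (74.7 ± 3.62) and CCT2 (32.6 ± 2.39; SD, n = 3). There the ranges of CCT3 and CCT7, of CCT4 and TCP1, and of TCP1 and CCT6A met. CCT4 thus stood below TCP1 and CCT6A by mean with WD6305 and above both with DMSO. The highest subunit was 4.34-fold above the lowest with WD6305 and 4.29-fold above it with DMSO.

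As shares of the summed FPKM of the 8 genes, CCT4 held 10.8% ± 0.0992 with WD6305 and 12.4% ± 0.265 with DMSO (SD, n = 3 each), a difference of -1.63 percentage points. CCT8 held 15.8% ± 0.282 with WD6305 and 14.7% ± 0.369 with DMSO, a difference of 1.11 points. CCT5 held 10.7% ± 0.127 with WD6305 and 9.79% ± 0.201 with DMSO, a difference of 0.93 points. For these 3 genes the groups did not overlap. For the other 5 genes they overlapped, and the differences ran from -0.35 points for CCT6A to 0.24 points for CCT3. The shares of a library sum to a whole, so they do not vary independently.

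**Figure D2:**
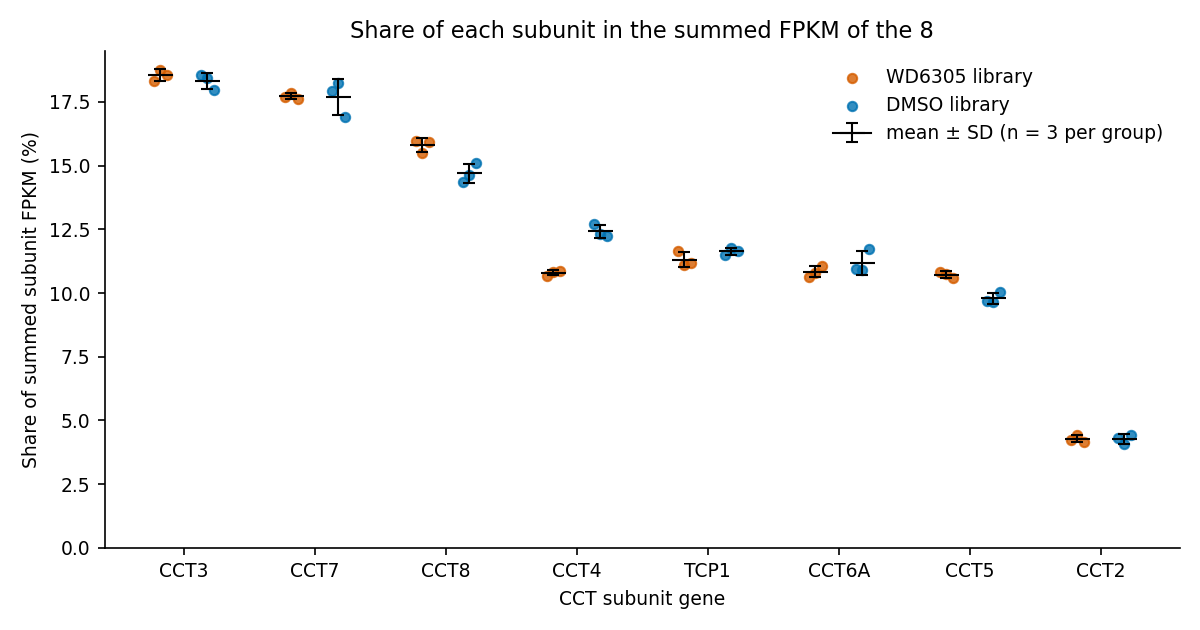
Share of each subunit in the summed FPKM of the 8, in percent, with a point for each of 3 WD6305 libraries (orange, left) and 3 DMSO libraries (blue, right) and bars for mean ± SD. CCT4 is lower with WD6305, CCT5 and CCT8 are higher with WD6305, and the other 5 genes overlap between the groups.

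The level of a gene in FPKM depends on the length it is divided by. The ratio of count to FPKM was set beside the length of all exons in GENCODE v29, retained introns included. It was first scaled by a common factor, fitted as the median of ratio over length in 6268 genes with a mean of at least 5 FPKM. After scaling it came within 5% of that length in 77.4% of these genes. The factor centres the genes on that length, so the share describes only the spread around it. For TCP1 the scaled ratio gave 4889 bases, where its longest coding transcript has 2499 bases. For CCT4 it gave 2707 bases against 2520 bases, so the subunits are divided by lengths that exceed their coding transcripts to different degrees. Divided by the longest coding transcript instead, an alternative added after the data were seen, CCT4 was 66.3 ± 0.366 CPM per kb with WD6305 and 106.7 ± 5.20 CPM per kb with DMSO (SD, n = 3 each). On that scale it stood below CCT5 in both groups, at 94.3 ± 2.42 with WD6305 and 120.4 ± 4.95 with DMSO. CCT6A was 87.8 ± 0.788 with WD6305 and 126.8 ± 7.10 with DMSO. By mean, CCT6A thus lay below CCT5 with WD6305 and above it with DMSO, where their ranges met. CCT3 (191.1 ± 1.72 with WD6305 and 263.8 ± 9.64 with DMSO) remained the highest and CCT2 (47.4 ± 1.57 with WD6305 and 66.2 ± 4.46 with DMSO) the lowest. The position of CCT4 between the others, and which subunits trade places between the groups, are thus set by the length used. The change within a gene is not.

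**Figure D3:**
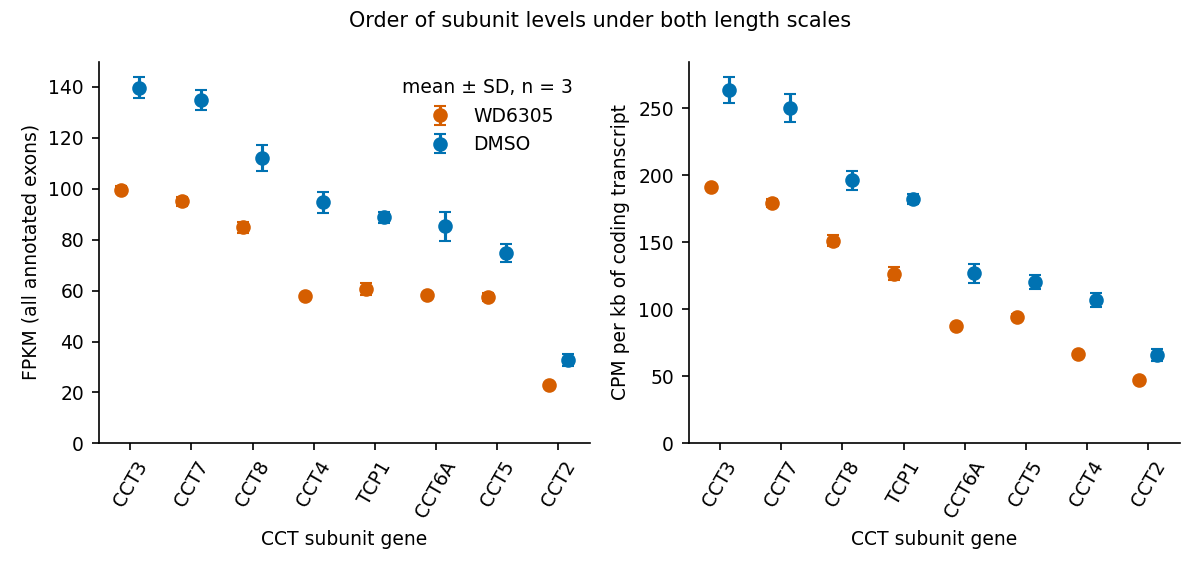
Mean ± SD (n = 3) of each subunit with WD6305 (orange, left of each pair) and DMSO (blue), in deposited FPKM (left panel) and in CPM per kb of the longest coding transcript (right panel). With DMSO, CCT4 lies above TCP1, CCT6A and CCT5 in FPKM and below all 3 per kb of coding transcript.

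The spread of transcript level over subunits was also taken in other complexes with fixed proportions. The highest over lowest subunit was 11.9 with WD6305 and 12.2 with DMSO for the 14 genes of the 20S proteasome core. It was 12.6 with WD6305 and 9.71 with DMSO for the 9 genes of the RNA exosome core. For the 9 genes of the COP9 signalosome it was 4.75 with WD6305 and 4.54 with DMSO. That is near the 4.34 and 4.29 of the CCT subunits with WD6305 and DMSO, and without DMSO library 3 the DMSO values turned, to 4.39 for the signalosome and 4.41 for CCT. The coefficient of variation over the CCT subunits was 37.4% with WD6305 and 36.2% with DMSO, and that over the proteasome core was 63.0% with WD6305 and 59.5% with DMSO. These ratios were not tested against each other. For the counts called lower in these and the following lists, the shares to set beside them are 11.2% of all tested genes and 29.3% of those with a mean of at least 20 FPKM. Of the proteasome core 13 of 14 genes fell, PSMB2, PSMA6, PSMA3 and PSMA7 among them, at log2 fold changes of -0.50, -0.54, -0.43 and -0.51, with a list median of -0.39. PSMB5 did not pass, at -0.06. The call of PSMA2 was lost without WD6305 library 1, 2 or 3 or DMSO library 1 or 3, at adjusted p 0.0772 to 0.151 in edgeR. Of the exosome core 3 of 9 fell (EXOSC2 at -0.47, EXOSC5 at -0.46 and EXOSC7 at -0.39), with a median of -0.13. Of the signalosome 3 of 9 fell (COPS6 at -0.36, COPS3 at -0.35 and GPS1 at -0.17), with a median of -0.17. EXOSC7 lost its call without WD6305 library 1 or 3 or DMSO library 1, and GPS1 without any library but WD6305 library 2 or DMSO library 3, at adjusted p 0.0515 to 0.140 in edgeR.

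None of the chaperonin-like genes and tested pseudogenes passed the test. CCT6B, the testis counterpart of CCT6A, was 0.107 ± 0.0306 FPKM with WD6305 and 0.090 ± 0.0458 FPKM with DMSO (SD, n = 3 each), where CCT6A had 58.1 FPKM with WD6305 and 85.3 FPKM with DMSO. The chaperonin-like genes BBS10, BBS12 and MKKS, which assist assembly of the BBSome, had log2 fold changes of 0.33, 0.08 and 0.09. These 4 genes had adjusted p values of 0.109 to 0.884 in edgeR, with 1 of the 4, BBS10, at an unadjusted p under 0.05 (0.0356), and DESeq2 also called 0 of them. CCT8L2 was not in the table. Of the pseudogenes named after subunits, CCT6P1 had 6.44 ± 0.928 CPM with WD6305 and 6.64 ± 0.734 CPM with DMSO (SD, n = 3 each). CCT6P3 had 3.95 ± 0.767 CPM with WD6305 and 3.33 ± 0.700 CPM with DMSO, and CCT8P1 had 2.74 ± 0.446 CPM with WD6305 and 3.92 ± 0.609 CPM with DMSO. None of these 3 passed the test. Reads of CCT6A and CCT8 could be split with these copies, which reached few counts beside 239 ± 2.14 CPM with WD6305 and 345 ± 19.3 CPM with DMSO for CCT6A.

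Prefoldin delivers nascent actin and tubulin to the barrel. Of its 6 genes 3 fell and 3 did not pass, with a median log2 fold change of -0.29, beside 11.2% of all tested genes called lower. Without WD6305 library 3, DMSO library 1 or DMSO library 3 only 1 of the 6 was called. PFDN2 had 68.1 ± 4.41 FPKM with WD6305 and 103.6 ± 2.35 FPKM with DMSO (SD, n = 3 each), a log2 fold change of -0.58 ± 0.0635 (SE; edgeR adjusted p = 0.000382). VBP1 (-0.22, adjusted p = 0.0447 in edgeR) and PFDN4 (-0.36, adjusted p = 0.0465) fell as well. PFDN1 at -0.01, PFDN5 at -0.05 and PFDN6 at -0.41 did not pass. PFDN6 was lower in every WD6305 library than in any DMSO library. It was called lower in 3 of 15 alternatives (DESeq2, limma on filtered FPKM and edgeR on counts divided by 4), at adjusted p 0.00306 to 0.0472. At most 4 of the 6 genes were called lower in any alternative. The call of VBP1 was lost without WD6305 library 2 or 3 or DMSO library 1 or 3, at adjusted p 0.0873 to 0.167 in edgeR. That of PFDN4 was lost without any library but WD6305 library 2, at adjusted p 0.0677 to 0.151 in edgeR, so PFDN2 alone kept its call throughout. The prefoldin-like and R2TP genes, of a related co-chaperone of HSP90, had 4 of 7 lower and a median of -0.43. RUVBL2 (-0.48 ± 0.0448), RUVBL1 (-0.43 ± 0.0489), PIH1D1 (-0.45 ± 0.0547) and PDRG1 (-0.76 ± 0.172; log2, SE) fell, and URI1, UXT and RPAP3 did not pass, at 0.04, -0.04 and -0.01. PDRG1 lost its call without WD6305 library 3 (adjusted p = 0.0509 in edgeR) or DMSO library 1 (0.0523).

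Of the CCT co-factors 1 of the 4 tested passed. PDCL, which helps CCT to fold G-protein beta subunits, rose in the fit of all libraries, at 6.01 ± 0.526 FPKM with WD6305 and 4.82 ± 0.415 FPKM with DMSO (SD, n = 3 each; log2 fold change 0.34, edgeR adjusted p = 0.0360). This call was lost without any library but DMSO library 2, at adjusted p 0.0689 to 0.129 in edgeR. PDCL3, TXNDC9 and PDCD5 did not pass, at 0.13, 0.09 and -0.20, and PDCL2 was not in the table. PDCD5 was called lower in 6 of 15 alternatives, DESeq2 and limma among them, at adjusted p 0.0127 to 0.0474. Of the 6 tubulin cofactors, which take tubulin on from CCT, TBCD (-0.52 ± 0.0496) and TBCA (-0.43 ± 0.0582; log2, SE) fell. TBCB, TBCC, TBCE and ARL2 did not pass, at -0.28, 0.09, -0.29 and 0.13. TBCB was called lower in 6 of 15 alternatives, DESeq2 and the omission of WD6305 library 1 among them, at adjusted p 0.0116 to 0.0486. TBCE was called lower by DESeq2 alone (adjusted p = 0.0177), so that DESeq2 called 4 of the 6 cofactors lower, where it called 16.9% of its tested genes lower.

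**Figure D4:**
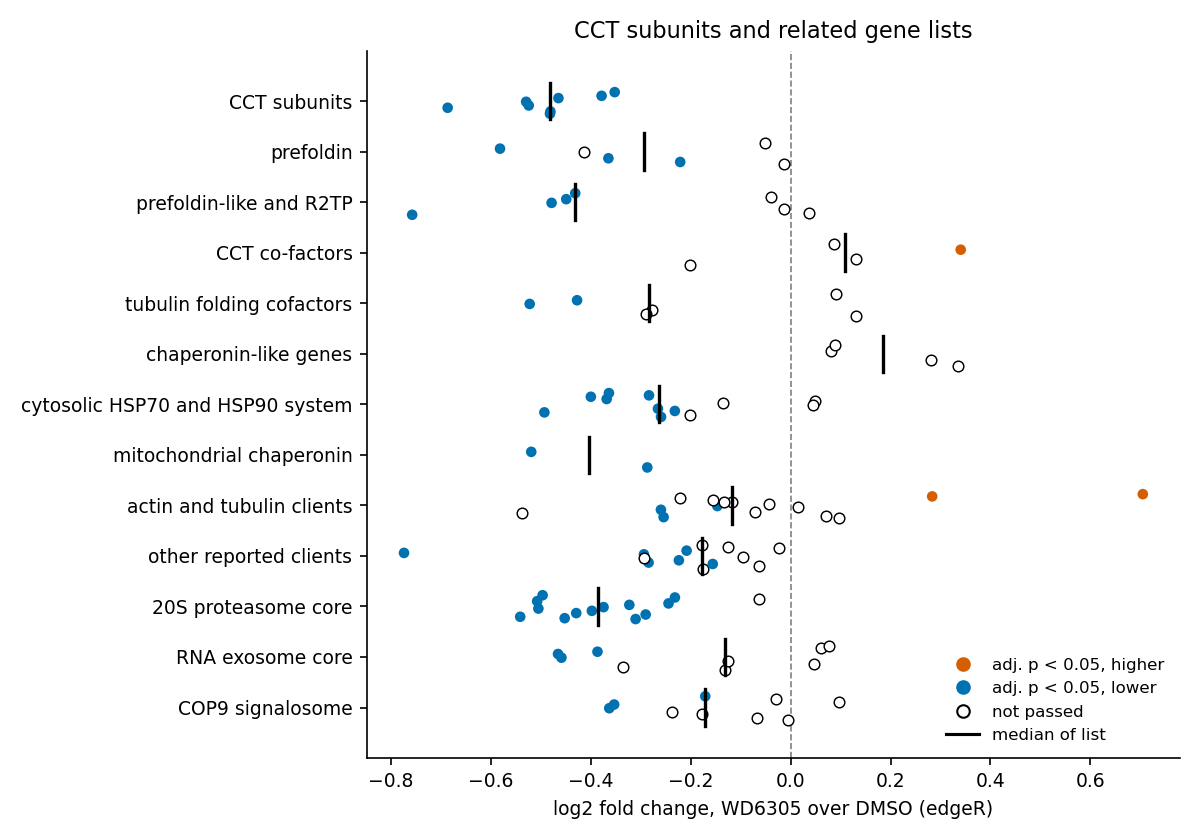
Log2 fold change of WD6305 over DMSO from edgeR for the CCT subunits and 12 other gene lists, a point per tested gene, filled where the adjusted p was under 0.05 (orange higher, blue lower), with a line at the list median. The subunits lie between -0.69 and -0.35, and 13 of 14 proteasome core genes also lie left of 0 and are filled.

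Of 15 actin and tubulin genes, which encode clients of CCT and related proteins, 3 fell, 2 rose and 10 did not pass, with a median of -0.12. Both counts lie between the share over all tested genes, 11.2% lower and 12.2% higher, and that over genes with a mean of at least 20 FPKM, 29.3% lower and 19.3% higher. TUBA4A, an alpha tubulin, rose to 49.3 ± 2.59 FPKM with WD6305, against 30.7 ± 1.26 FPKM with DMSO (SD, n = 3 each; log2 fold change 0.71, edgeR adjusted p = 9.4e-05). ACTR2, a subunit of the Arp2/3 complex, rose by 0.28 (log2), and TUBB6, TUBA1C and ACTR3 fell, at -0.25, -0.26 and -0.15. The 4 most abundant genes of the list did not pass. ACTB had 1451 ± 78.9 FPKM with WD6305 and 1379 ± 48.8 FPKM with DMSO, and ACTG1 had 1043 ± 35.4 FPKM with WD6305 and 1149 ± 40.2 FPKM with DMSO (SD, n = 3 each). TUBA1B had 859 ± 10.6 FPKM with WD6305 and 972 ± 16.4 FPKM with DMSO, and TUBB had 799 ± 7.48 FPKM with WD6305 and 837 ± 28.8 FPKM with DMSO (SD, n = 3 each). TUBA1B was lower in every WD6305 library than in any DMSO library (edgeR adjusted p = 0.0599) and was called lower in 5 of 15 alternatives, DESeq2 and the omission of DMSO library 3 among them, at adjusted p 0.00313 to 0.0463. Only with DMSO library 3 left out did ACTR3 keep its call among the single omissions, which otherwise gave adjusted p 0.0656 to 0.161 in edgeR. Without DMSO library 3 the list had 5 genes lower. ACTR2 lost its call in limma on unfiltered FPKM, at adjusted p 0.0628 and 0.0672.

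Among 13 other reported clients 6 fell and 7 did not pass, with a median of -0.18, beside 11.2% of all tested genes called lower and 29.3% of those with a mean of at least 20 FPKM. CDC20, the mitotic activator of the anaphase-promoting complex, fell to 70.1 ± 4.67 FPKM with WD6305, against 121.7 ± 7.20 FPKM with DMSO (SD, n = 3 each; log2 fold change -0.77, edgeR adjusted p = 0.000152). HDAC1, a histone deacetylase, FZR1, the other activator of that complex, and MLST8, a subunit of both mTOR complexes, fell as well, at -0.21, -0.28 and -0.29. This list had 3 genes lower without WD6305 library 2, 2 without WD6305 library 3, where 6.92% of all tested genes were called lower, and 3 without DMSO library 2. FZR1 lost its call without WD6305 library 1 or 3 or DMSO library 2, and MLST8 without WD6305 library 2 or 3 or DMSO library 1 or 2, at adjusted p 0.0593 to 0.0996 in edgeR.

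Chaperones of the HSP70 and HSP90 system, which act upstream of and beside CCT, had 8 of 12 genes lower, 4 that did not pass and a median of -0.26. PTGES3 (p23), a co-chaperone of HSP90, had 105.2 ± 2.81 FPKM with WD6305 and 150.5 ± 2.91 FPKM with DMSO (SD, n = 3 each; log2 fold change -0.49, edgeR adjusted p = 0.000181). STIP1 at -0.40, HSP90AB1 at -0.37 and AHSA1 at -0.26 fell too, whereas DNAJB1 at 0.04, BAG2 at 0.05, HSPH1 at -0.14 and HSP90AA1 at -0.20 did not pass. Without WD6305 library 3 the list had 5 genes lower. The mitochondrial chaperonin, a distant relative of CCT in the matrix, was lower in both subunits, HSPE1 at -0.52 ± 0.0739 and HSPD1 at -0.29 ± 0.0678 (log2, SE, edgeR). HSPD1 lost its call without WD6305 library 2 or 3, at adjusted p 0.0664 and 0.0795 in edgeR. Of the transcription factors reported to act on CCT genes, MYC fell to 64.8 ± 1.46 FPKM with WD6305, against 85.0 ± 2.44 FPKM with DMSO (SD, n = 3 each; log2 fold change -0.37, edgeR adjusted p = 0.000664). HSF1 at -0.03 and HSF2 at 0.09 did not pass.

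By the deposited gene starts, 5 of the 8 subunits share a divergent start with another gene. That means that a gene on the opposite strand begins within 1000 bases. That is 62.5% of the subunits, against 19.4% of 13379 tested protein-coding genes. The share among genes of high level was not taken. All distances here run between deposited starts. The RefSeq starts of CCT7 and CCT5 lay 888 and 608 bases downstream of these, so both the count and the distances depend on the start used. These neighbours did not all take the direction of their subunit. PSPH, a phosphatase of serine synthesis, 218 bases from CCT6A, fell to 3.69, 3.72 and 3.86 FPKM with WD6305, against 6.12, 6.15 and 6.16 FPKM with DMSO (log2 fold change -0.68 ± 0.0761, SE; edgeR adjusted p = 0.000429). PRADC1, 181 bases from CCT7, rose to 14.74, 13.37 and 14.03 FPKM with WD6305, against 10.32, 10.34 and 8.84 FPKM with DMSO (log2 fold change 0.54 ± 0.0949, SE; edgeR adjusted p = 0.00410). For both genes the groups did not overlap. MRPL18, a protein of the mitochondrial ribosome, 109 bases from TCP1, had 96.44, 98.21 and 95.43 FPKM with WD6305 and 98.16, 92.45 and 90.18 FPKM with DMSO. Its groups overlapped and it did not pass, at a log2 fold change of 0.07 ± 0.0511. COMMD1, 53 bases from CCT4, and ATPSCKMT, 33 bases from CCT5, did not pass either, at -0.07 ± 0.119 and -0.13 ± 0.126 (SE). The difference between a neighbour and its subunit was not tested.

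**Figure D5:**
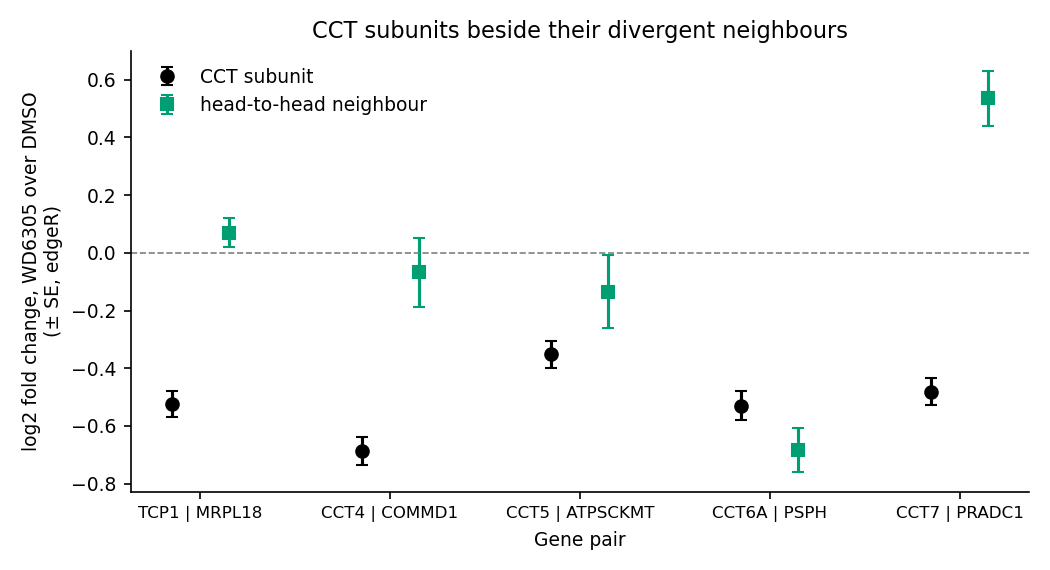
Log2 fold change of WD6305 over DMSO (± SE, edgeR) for each of 5 CCT subunits (black circles) and the gene that starts head to head with it (green squares). PSPH lies at -0.68 beside CCT6A at -0.53, and PRADC1 lies at 0.54 beside CCT7 at -0.48.

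Where genes overlap, reads cannot be assigned with certainty, since no source used here says whether counting used the strand. ACAT2 overlaps the end of TCP1 on the opposite strand and was lower by the fit of all libraries (log2 fold change -0.18, edgeR adjusted p = 0.0333). That call was lost without WD6305 library 1 or 3 or DMSO library 1 or 3, at adjusted p 0.0541 to 0.144 in edgeR. TSACC, opposite to CCT3, did not pass and stayed under 1 FPKM. The small nucleolar RNAs inside TCP1 and CCT6A, which are SNORA29, SNORA20, SNORA22B and SNORA15, stayed at or under 2.80 FPKM. The 4 overlapping genes without a symbol that were tested did not pass, and another was too low to test.

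The coding transcripts of the subunits were compared with those of 13263 tested genes for the letters GGACT, the form of the N6-methyladenosine consensus most often methylated. The longest coding transcript held GGACT at a median of 0.658 per kb in the subunits and 0.937 per kb in all these genes. CCT6A held the most for its length, 1.10 per kb, before CCT7 (0.985), CCT3 (0.930), CCT5 (0.816), CCT8 (0.499), CCT2 (0.457) and TCP1 (0.400). CCT4 held 0 copies in 2520 bases. Other forms of the consensus were not counted. Median length was 2344 bases in the subunits and 3301 bases in all, and median GC content was 44.6% in the subunits and 49.2% in all. No methylation was measured, so these letters describe the transcripts only.

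The genes most like the subunits in their pattern over the 6 libraries were sought among 3763 coding genes with a mean of at least 10 FPKM. Likeness was the root mean square difference in log2 CPM, centred per gene, from the mean of the subunits. The closest were PHB1 (0.0216), CTPS1 (0.0261), MTCH2 (0.0294), PES1 (0.0300), PPP1R27 (0.0314), POLR2D (0.0325), SLC20A1 (0.0358) and ZNF598 (0.0371). PHB1, a prohibitin of the inner mitochondrial membrane, had 44.01, 45.03 and 43.02 FPKM with WD6305 and 65.15, 60.95 and 64.01 FPKM with DMSO. CTPS1, an enzyme of CTP synthesis, had 11.30, 10.60 and 10.47 FPKM with WD6305 and 15.30, 14.73 and 15.56 FPKM with DMSO. All 8 were lower in every WD6305 library than in any DMSO library, which the choice by likeness fixes. Measured against the mean of the other members, the subunits ranged from 0.0270 for CCT3 to 0.116 for CCT4. The measure is not scaled for the size of a change. CCT4 had the largest fall of the 8 genes, so its value mostly restates that fall and shows no separate pattern.

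By annotation, all 8 genes share 19 GO terms and 15 Reactome terms in the deposited table. The term for the chaperonin-containing T-complex is held by 9 genes, the 8 subunits and CCT6B. All 8 subunits also carry the term for positive regulation of telomerase RNA localisation to the Cajal body, held by 15 genes in the table. The others that hold it are DKC1, NAF1, NHP2, NOP10, RUVBL1, RUVBL2 and SHQ1.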

How the data were processed

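Poly(A) RNA of Mon-Mac-6 cells was sequenced in 6 libraries, 3 with WD6305 and 3 with DMSO, and the deposited table gives each library an estimated count and an FPKM value per gene. The submitters' processing notes name the tools fastp, HISAT2, StringTie and edgeR and the build GRCh38, without versions. Estimated counts as deposited are whole and pile up at multiples of 4 (1071 to 1176 genes had a count of 4, against 357 to 380 with a count of 5), so they may overstate the number of fragments. FPKM were computed by the authors, per the file headers, and scale with length and depth.

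Counts were tested with edgeR 4.0.16 (filterByExpr, TMM factors of 0.987 to 1.02, quasi-likelihood, two-sided, no replicate block) under R 4.3.3, with Benjamini-Hochberg adjustment over 18138 genes at 0.05. CPM relate each count to the TMM-scaled size of its library. Alternatives used DESeq2 1.42.0, limma 3.58.1 on log2(FPKM + 1) or log2(FPKM + 0.1), other scaling and filters, and each library left out. No pair of replicate libraries agreed within sampling noise (chi-square per degree of freedom 3.77 to 10.4 on counts divided by 4). On simulated data of 17536 genes, 10.9% of 1.3-fold, 33.8% of 1.5-fold and 57.8% of 2-fold changes were recovered, with 5 false calls. Only 200 genes, drawn at any level, were changed there, where 23.4% of tested genes were called in the data. The adjustment is stricter when fewer genes change, so these rates do not give the share of changes recovered in the data. With 3 libraries per group an exact permutation test cannot go below 0.1, so none was used.

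The members and lists were chosen with earlier results of these data known. Named genes are the subunits, up to 4 members of each list with the smallest adjusted p, all members where a count is 5 or fewer, genes overlapping or head to head with a subunit, pseudogenes, and the 8 genes most alike. Other columns of samples numbered 0.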

Additional observations from a re-analysis of the deposited data

How the results depend on the processing

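All 8 subunits were lower with WD6305 under each of 15 alternatives, with log2 fold changes between -0.72 and -0.33. Leaving out 1 library at a time gave 1310 to 2077 genes called lower (2031 with all libraries), 1446 to 2563 called higher (2218) and 2756 to 4640 in all (4249). The lowest of each came without WD6305 library 3. limma on unfiltered FPKM called 1368 genes higher with a pseudocount of 1 and 1440 with 0.1. In the 9 folding and client lists, 28 genes were called lower and 3 higher, beside 11.2% lower and 12.2% higher of all tested genes. Of genes with a mean of at least 20 FPKM, 29.3% were called lower and 19.3% higher. Tested in these lists were 4 chaperonin-like, 6 prefoldin, 7 prefoldin-like and R2TP, 4 co-factor and 6 tubulin cofactor genes. The rest were 15 actin and tubulin genes, 13 other clients, 12 HSP70 and HSP90 genes and 2 of the mitochondrial chaperonin. Leaving out 1 library gave 16 to 29 lower and 2 to 3 higher. The 16 came without WD6305 library 3, where 6.92% of all tested genes were called lower. DESeq2 called 36 lower, where it called 16.9% of its tested genes lower. With limma on unfiltered FPKM 1 was higher with either pseudocount.

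The highest over lowest subunit, 4.34 with WD6305 and 4.29 with DMSO, was 4.29 to 4.39 with WD6305 and 4.18 to 4.41 with DMSO when 1 library was left out. It was 3.96 with WD6305 and 3.91 with DMSO in counts, and 4.03 with WD6305 and 3.99 with DMSO per kb of coding transcript, where lengths differ by construction. The differences in share of CCT2, CCT6A and CCT7 took either sign among the alternatives. Those of CCT4 (-1.72 to -1.10 points), CCT5 (0.82 to 1.24) and CCT8 (0.86 to 1.31) did not.

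With the replicate number as a block, 1468 genes were called lower. Deviations of same-numbered libraries correlated at -0.181, 0.0782 and -0.146, so no pairing by number was seen. Libraries that stand apart can mask such a correlation, so this check cannot decide whether equal numbers mark paired samples. The limits are 3 libraries per group, counts that may be multiples of fragments, a length scale that includes retained introns, and the absence of protein or methylation data.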
